A study of Rattus norvegicus with 3 samples.

Results

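Broad H3K4me3 peaks that lay away from H3K9me3 were examined in round spermatids, the haploid germ cells that follow meiosis, from the testis of Sprague-Dawley rats. They were chosen by measured values: a row of the deposited H3K4me3 peak list on chromosomes 1 to 20 was taken when its end minus its start was 1500 bp or more and when it shared no base with a row of the H3K9me3 peak list. Of the 7684 H3K4me3 peaks in the series, 7572 lay on these chromosomes and 937 met both conditions (12.4% of the 7572, Wilson 95% interval 11.7 to 13.1%). They were set against the 4247 narrow peaks, those under 1500 bp, that also lacked H3K9me3, and in places against the 455 broad peaks that overlapped it.

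The study held 3 chromatin immunoprecipitation libraries from untreated animals, made with an antibody to H3K4me3, with an antibody to H3K9me3 and with no antibody, 1 library each. The sources used here give neither the age nor the number of the animals. A peak list was used for each of the 2 marks. Both lists bear the name of the library without antibody beside that of the mark. It is read here as their control, although the labels do not say so. If the name instead meant peaks of the control over the mark, all positions below would be those of that excess. With 1 library per mark there is no replicate error and no test between groups, and the read depth is unknown. Intervals on shares are Wilson intervals at the 95% level and those on densities are exact Poisson intervals; they cover counting error only and treat peaks as independent.

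H3K4me3 is trimethylation of lysine 4 of histone H3. It is placed by the SET1 and MLL families of methyltransferases, is removed by KDM5 demethylases, and in most cells marks the promoters of genes that are transcribed or poised, above all those rich in CpG. Wide stretches of the mark are known from promoters of genes that define a cell's identity and of genes transcribed at high levels. H3K9me3 is placed by enzymes such as SUV39H1, SUV39H2 and SETDB1 and is typical of heterochromatin and silenced repeats, so that the marks usually occupy different chromatin. Positions are those of the rat build rn6. No rn6 gene annotation or sequence was used here, so the peaks are given by position, no gene is assigned to any of them, and the labelled cell type could not be checked against promoters of its marker genes.

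The broad peaks were few in number and large in extent. They made up 18.1% of the 5184 H3K4me3 peaks off H3K9me3 (interval 17.1 to 19.1%), yet covered 2119 kb, or 36.6% of the length of those peaks. Of the length of all H3K4me3 peaks on these chromosomes they held 24.7%, against 42.7% in the narrow peaks off H3K9me3 and 13.5% in the broad peaks on it. Their median width was 1981 bp, with quartiles of 1721 and 2536 bp. Most were thus only moderately wide: 457 of 937 reached 2000 bp, 140 reached 3000 bp and 37 reached 4000 bp, with a maximum of 7246 bp. The minimum of 1500 bp cut through a continuous range of widths. The 3 peaks nearest above it were 1501 bp wide, with scores of 114, 88.8 and 88.8, and the 3 nearest below it were 1499, 1499 and 1498 bp wide, with scores of 79.7, 124 and 62.5.

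Broad and narrow peaks met H3K9me3 at similar shares in the list as a whole. An overlap was found for 455 of 1392 broad peaks (32.7%, 30.3 to 35.2%) and for 1933 of 6180 narrow peaks (31.3%, 30.1 to 32.4%), a difference of 1.41 percentage points with an interval from -1.27 to 4.17. When only H3K9me3 peaks at or above their own median score were counted, the difference was 2.78 points, with an interval from 0.167 to 5.48 that excluded 0. The order turned among the stronger H3K4me3 peaks. Among peaks with a score at or above the median of the list, 32.7% of the broad and 47.3% of the narrow peaks overlapped H3K9me3. By class of width the share on H3K9me3 ran between 25.6% (20.9 to 30.9%) and 36.5% (33.5 to 39.8%) for peaks under 4000 bp, with no steady order. It was 53.8% (42.9 to 64.3%) for the 80 peaks of 4000 bp or more, of which 43 overlapped. These classes were not matched for score, and a wider peak can meet an overlap of 1 bp more readily.

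Each peak carries the authors' score, whose unit no header states. It rose with width, so the scores of the broad peaks follow in part from how they were chosen and are given as a description. The broad peaks had a median score of 138, with quartiles of 101 and 209 and a range from 45.8 to 873. For the narrow peaks off H3K9me3 the median was 39.2, with quartiles of 33.04 and 53.1 and a range from 30 to 243. The groups overlapped, since 1509 of 4247 narrow peaks scored above the lowest broad peak, but 166 of the 937 broad peaks scored above every narrow one. The list's median score, 49.5, was reached by 936 of 937 broad peaks and by 1251 of 4247 narrow ones. Per kb of width the gap was smaller, with medians of 68.0 and 51.9 score units per kb. Across the 5184 peaks off H3K9me3, Spearman's rho of width and score was 0.849, and it was 0.746 within the broad peaks and 0.741 within the narrow ones; these are correlations across peaks of 1 library, in which both values come from the same call.

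**Figure D1:**
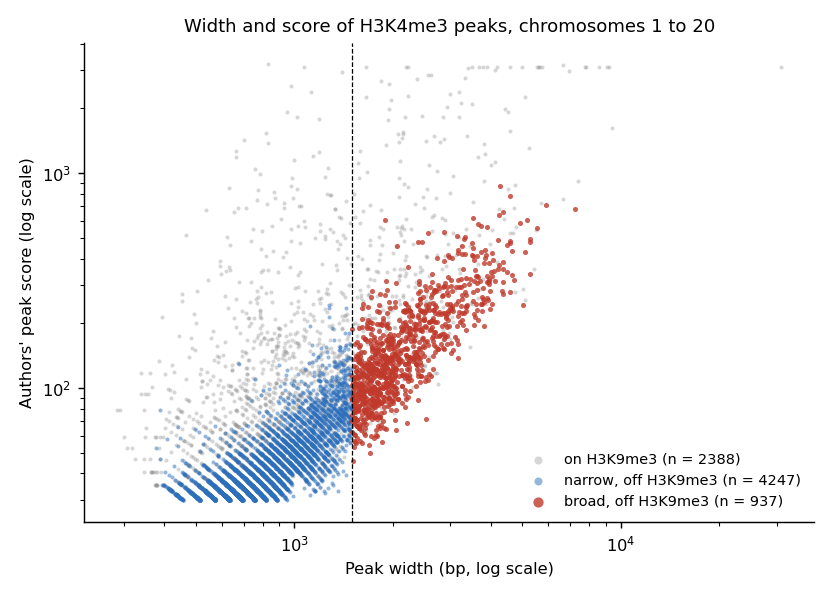
Width (bp, log scale) against the authors' score (log scale) of each H3K4me3 peak on chromosomes 1 to 20, with the 1500 bp minimum as a dashed line. Broad peaks off H3K9me3 (red, 937) continue the trend of the narrow ones (blue, 4247) and end at a score of 873, whereas 100 of the peaks on H3K9me3 (grey, 2388) lie above that score.

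The highest scores of the H3K4me3 list were missing from the broad peaks off H3K9me3. The highest member score, 873, was exceeded by 100 autosomal H3K4me3 peaks, and the width of the widest member, 7246 bp, by 8. These peaks all lay on H3K9me3, but that follows from the cutoffs. They are the members' own maxima, and no narrow peak off H3K9me3 reached either. Among broad peaks, the share on H3K9me3 was 22.3% (19.1 to 25.8%) at scores from 100 to under 200, 40.3% (32.4 to 48.8%) at 300 to under 500, and 75.0% (63.9 to 83.6%) at 500 to under 1000. All 72 broad peaks at 1000 or more lay on H3K9me3. The broad peaks on H3K9me3 had a median width of 2107 bp, close to that of the members, but a median score of 234 and a median of 98.5 score units per kb. In score, the broad peaks away from H3K9me3 thus stood above most narrow peaks and below the extremes of the list.

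The widest member ran from 102198530 to 102205775 of chromosome 10, over 7246 bp with a score of 679. It was followed by 123706913 to 123712805 of chromosome 7, over 5893 bp with a score of 709, and by 32444726 to 32450250 of chromosome 16, over 5525 bp with a score of 553. The next 7 were between 5279 and 4898 bp wide, with scores from 242 to 601, and lay on chromosomes 8, 5, 6, 2, 13, 10 and 2. The lowest of these scores belonged to the region from 90985429 to 90990455 of chromosome 10, which was 5027 bp wide and had 48.1 score units per kb, below the median of the broad peaks. Wide members thus differed by a factor of more than 2 in score at like width. Of the 10 widest, 4 were also among the 10 highest in score.

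The highest score, 873, was at 73491474 to 73495754 of chromosome 5, over 4281 bp. Another broad peak, 1981 bp wide with a score of 139, began 42 bp beyond its end. The second highest, 782, was at 1532763 to 1537357 of chromosome 19, and it stood alone, 850 kb from the next H3K4me3 peak and 1068 kb from the nearest H3K9me3 peak. The most compact of the 10 was at 133057601 to 133059495 of chromosome 2, with a score of 606 over 1895 bp, or 320 score units per kb, the highest of all members; the next highest was 223. At the other end, the lowest score, 45.8, belonged to 14015173 to 14016690 of chromosome 18, over 1518 bp. The peaks with top scores therefore included isolated ones and ones with an immediate neighbour.

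Many members had another H3K4me3 peak close by. Of the 937 broad peaks, 346 had another H3K4me3 peak within 1 kb of an edge (36.9%, 33.9 to 40.1%), 395 within 5 kb (42.2%, 39.03 to 45.3%) and 441 within 20 kb (47.1%, 43.9 to 50.3%). The share thus rose little from 1 to 20 kb, and the median distance was 30.8 kb. For the 346 the gap had a median of 194 bp and quartiles of 73 and 427 bp. Among narrow peaks off H3K9me3, 25.3% (24.03 to 26.6%) had a neighbour within 1 kb and 32.6% (31.2 to 34.1%) within 5 kb, and the median distance was 65.7 kb. The intervals did not overlap at either distance.

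This excess of close neighbours depended on the score. Among peaks scoring from 100 to under 150, a neighbour within 5 kb was found for 37.7% of 292 broad peaks (32.3 to 43.4%) and for 55.0% of 120 narrow ones (46.1 to 63.6%), so the order was turned. The same held against narrow peaks with scores between the quartiles of the broad ones, of which 58.5% had such a neighbour, and among all peaks at or above the list median, with 42.2% of the broad and 49.2% of the narrow. From 50 to under 100 the shares were closer, 42.5% of 228 broad (36.3 to 49.03%) and 48.1% of 1089 narrow peaks (45.2 to 51.1%), and the intervals overlapped. From 150 to under 250 they were 46.4% and 75.0%, with only 20 narrow peaks. The higher share in broad peaks was therefore a feature of the full list and was not seen at like score. Broad peaks on H3K9me3 were more crowded, with 82.2% (78.4 to 85.4%) within 5 kb of another H3K4me3 peak.

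**Figure D2:**
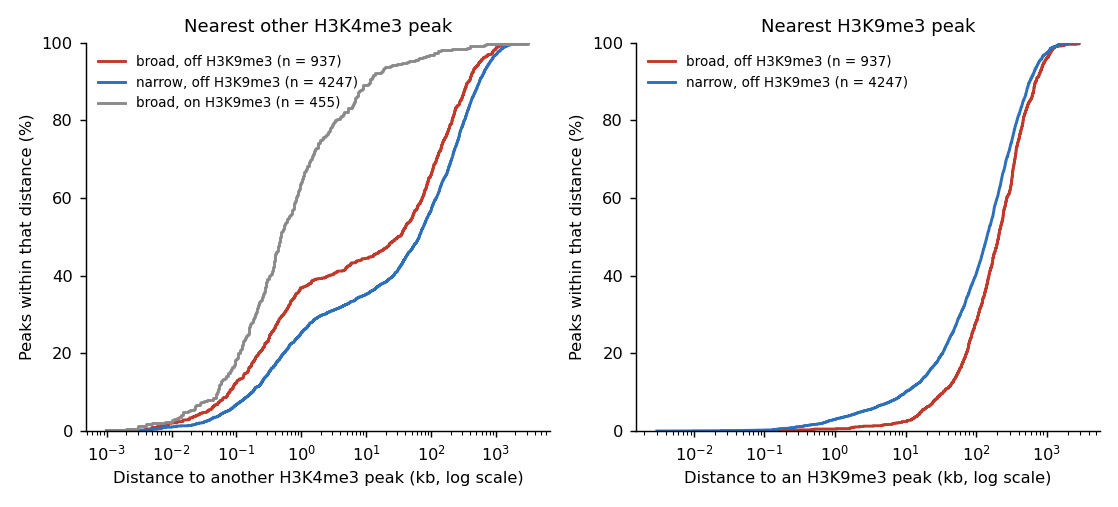
Cumulative share of peaks (%) within a distance (kb, log scale) of the nearest other H3K4me3 peak (left) and of the nearest H3K9me3 peak (right). On the left, the broad peaks off H3K9me3 (red) climb to 36.9% at 1 kb, flatten, and climb again beyond 20 kb, above the narrow ones (blue) and below the broad peaks on H3K9me3 (grey); on the right, the broad peaks stay below the narrow ones, with 2.45% against 10.1% at 10 kb.

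When peaks with gaps of at most 1 kb were counted together, the 937 broad peaks fell into 888 groups. Of these, 591 held the broad peak alone, 251 held 2 peaks, 35 held 3, and 11 held 4 to 6. More than 1 broad peak was present in 47 groups. The 310 other peaks of these groups were mostly small, at medians of 917 bp in width and 48.3 in score, and 301 of them lay off H3K9me3. In the 210 pairs of 1 broad and 1 narrow peak off H3K9me3, the broad one had the higher score in 205, with medians of 139 and 46.3. Because score rose with width in this list, that order follows in part from how the pairs were chosen. The broad peak had the lower coordinate in 91 of the 210 pairs (43.3%, 36.8 to 50.1%), an interval whose upper end just reached equal sides. Broad peaks that stood alone and those in groups were alike in score, with medians of 135 and 147, and in width, with 2010 and 1946 bp.

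The longest such group ran from 45296162 to 45306877 of chromosome 10. It spanned 10716 bp and held 6 peaks, 2 broad and 4 narrow, with a highest score of 314. The next, from 87233686 to 87242504 of chromosome 11, spanned 8819 bp and held 2 broad peaks and 1 narrow one, with a highest score of 358. Over all 297 groups of 2 or more peaks the median span was 3734 bp. Counted as groups, a part of the members thus belonged to H3K4me3 stretches longer than their own row in the list.

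H3K9me3 was also less frequent in the surroundings of the broad peaks than in those of the narrow ones. The rule removed only peaks that touched H3K9me3. A wider peak can touch it more readily, so near H3K9me3 the rule may leave out more broad than narrow peaks. The distances, shares and covers given here and below may carry this effect, whose size was not tested. The nearest H3K9me3 peak lay at a median of 208 kb from the broad peaks, with quartiles of 87.2 and 399 kb, and at 143 kb from the narrow ones, with quartiles of 45.5 and 323 kb. Only 23 of 937 broad peaks had H3K9me3 within 10 kb (2.45%, 1.64 to 3.66%), against 427 of 4247 narrow peaks (10.1%, 9.19 to 10.995%). Within 100 kb the shares were 28.1% (25.3 to 31.0%) and 40.4% (38.9 to 41.9%). The intervals were apart at both distances. Not every width class of the broad peaks shared the gap within 100 kb. For the 103 broad peaks from 3000 to under 4000 bp the share was 38.8% (29.99 to 48.5%), an interval that held the narrow share. Their median distance was 135 kb. In the other width classes from 1500 bp upward the share ran from 24.2 to 29.4% and the median distance from 199 to 298 kb.

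Unlike the close H3K4me3 neighbours, this order did not turn with the score, but at like score the gap within 100 kb was less clear than that within 10 kb. Among peaks scoring from 100 to under 150, 6 of 292 broad peaks (2.05%, 0.945 to 4.41%) and 12 of 120 narrow peaks (10.0%, 5.81 to 16.7%) had H3K9me3 within 10 kb. From 50 to under 100 the shares were 2.19% (0.940 to 5.03%) and 7.90% (6.44 to 9.65%). From 150 to under 250 only 20 narrow peaks remained, of which 1 was within 10 kb, and the intervals overlapped. By width, the share fell from 15.2% (12.5 to 18.4%) in peaks under 600 bp to 5.52% (3.77 to 8.02%) in the class just under 1500 bp and 4.15% (2.33 to 7.28%) in the class just above it, and was between 0.926% and 2.87% in the wider classes. The intervals on either side of 1500 bp overlapped.

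The amount of H3K9me3 in the flanks was lower as well. In the 100 kb on either side, H3K9me3 covered on average 0.441% of the flanks of broad peaks and 1.10% of those of narrow peaks. The median was 0 in both classes, so a minority of peaks made up these averages. For broad peaks that touched H3K9me3 the average was 19.8%. More than 5% of the flanks was covered at 18 broad peaks (1.92%, 1.22 to 3.02%) and at 236 narrow ones (5.56%, 4.91 to 6.29%). At 200 kb from the midpoint, on the sides of lower and higher coordinate, the running mean over neighbouring points of the share of peaks with H3K9me3 there was 0.587% and 0.854% for broad and 1.29% and 1.36% for narrow peaks. The H3K9me3 peaks nearest to the members were weak ones: their median score was 38.2 and their median width 711 bp, against 61.4 and 935 bp for all autosomal H3K9me3 peaks. The values next to narrow peaks were alike, 38.6 and 718 bp.

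**Figure D3:**
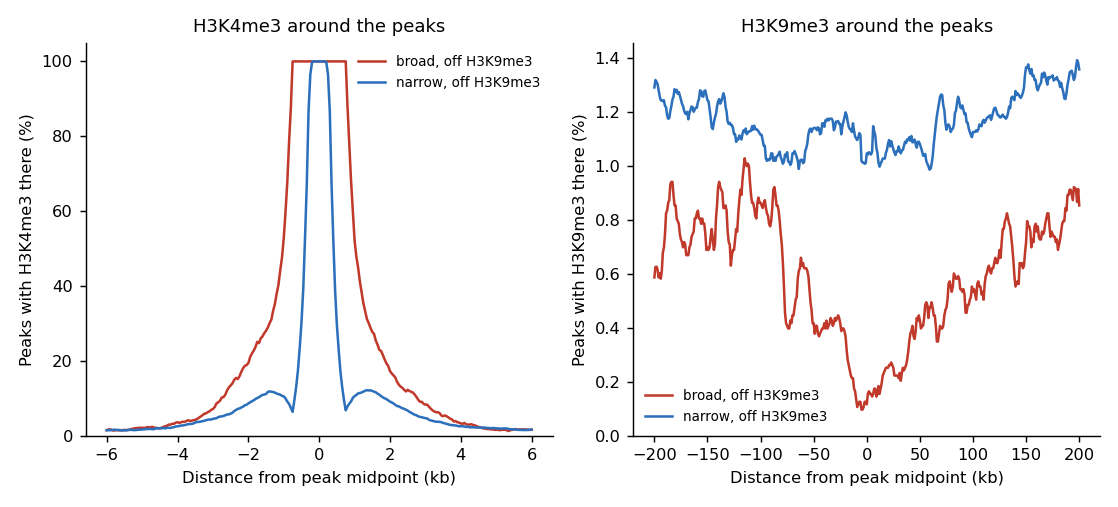
Share of broad (red) and narrow (blue) peaks off H3K9me3 at which H3K4me3 (left, every 50 bp) or H3K9me3 (right, every 1 kb, running mean of 11 points) is found at a distance in kb from the peak midpoint. Left, shoulders on both sides of the broad peaks fall to 19.4% and 17.3% at 2 kb; right, H3K9me3 at 50 kb to either side is at 0.417% and 0.427% for broad peaks and at 1.14% and 1.08% for narrow ones. Close to the midpoint the selection itself removes H3K9me3, over a longer stretch for broad peaks.

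A few members came close to H3K9me3. The region from 195664616 to 195666293 of chromosome 1, with a score of 207, lay 148 bp from an H3K9me3 peak, and that from 113979281 to 113981353 of chromosome 9, with a score of 176, lay 174 bp away. In all, 5 of 937 were within 1 kb (0.534%, 0.228 to 1.24%), compared with 129 of the 4247 narrow peaks (3.04%, 2.56 to 3.60%). At the far end stood 3 neighbouring broad peaks between 77063317 and 77070128 of chromosome 7, which formed 1 group. They were 1885, 3178 and 1650 bp wide with scores of 113, 319 and 169, were separated by 80 and 19 bp, and lay 2891 to 2896 kb from the nearest H3K9me3 peak. These regions were singled out after their values were seen.

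The members were spread over all 20 chromosomes. Chromosome 1 held the most, 106, and chromosome 11 the fewest, 16. Per Mb of span, taken as the largest peak end on each chromosome, chromosome 10 was highest with 0.675 (0.532 to 0.845), and chromosome 11 lowest with 0.177 (0.101 to 0.287). The interval of chromosome 10 met those of 6 others, chromosomes 6, 7, 8, 12, 19 and 20, and lay above those of the remaining 13. Narrow peaks off H3K9me3 were also densest on chromosome 10, at 2.30 per Mb.

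Among peaks off H3K9me3 the broad share varied less than the density. It was highest on chromosome 13, with 38 of 162 peaks (23.5%, 17.6 to 30.5%), and lowest on chromosome 11, with 16 of 155 (10.3%, 6.45 to 16.1%). Of the 20 intervals, 18 held the overall share of 18.1%. The others were those of chromosome 11 and of chromosome 10, which stood at 22.7% (18.5 to 27.5%). Median widths ran from 1840 bp on chromosome 18 to 2223 bp on chromosome 16, and median scores from 114 on chromosome 19 to 169 on chromosome 20. On chromosome 16, 1 of 25 members had an H3K4me3 neighbour within 1 kb, whereas the share was between 25.7% and 51.6% on the other 19 chromosomes. Chromosome 16 was picked as the extreme of the 20 after the values were seen. Its members are few, and no interval was computed for this share.

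**Figure D4:**
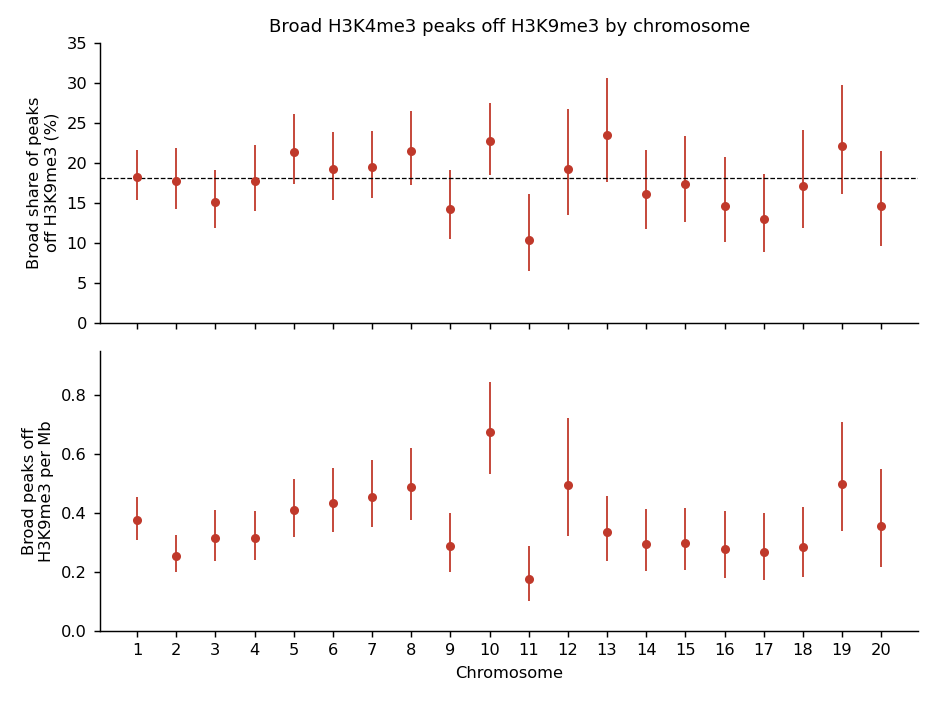
Broad share (%) of the H3K4me3 peaks off H3K9me3 with Wilson 95% intervals (top) and broad peaks off H3K9me3 per Mb with exact Poisson 95% intervals (bottom) for chromosomes 1 to 20. The dashed line is the share over all of them, 18.1%; chromosome 11 is lowest in both panels and chromosome 10 has the highest density, 0.675 per Mb.

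Along the chromosomes a larger share of the members than of the narrow peaks lay in the part of higher coordinates. With each span divided into 5 equal parts, 150, 151 and 155 broad peaks fell in the first 3 parts and 233 and 248 in the last 2. The last part held 26.5% of the broad peaks (23.7 to 29.4%) and 22.3% of the narrow peaks off H3K9me3 (21.05 to 23.6%), and the first part 16.0% (13.8 to 18.5%) and 19.6% (18.5 to 20.9%). The median position was at 61.9% of the span for broad peaks and 52.6% for narrow ones. The ends themselves showed no such excess, since the last 10% of the span held 11.1% of the broad peaks (9.24 to 13.3%) and 11.3% of the narrow ones (10.3 to 12.2%).

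In windows of 1 Mb, 666 of 2626 held a broad peak off H3K9me3 (25.4%, 23.7 to 27.1%). Of these, 468 held 1, 144 held 2, and 54 held 3 or more. The 54 windows contained 181 of the 937 members, and their median H3K9me3 cover was 1.73 kb, against 3.85 kb for all windows. This is a description only, since windows chosen for many peaks without H3K9me3 are in part chosen for low cover. Windows equally rich in narrow peaks were not compared. Members became a smaller part of the peaks off H3K9me3 as the window's H3K9me3 cover rose. They were 22.8% (19.99 to 25.9%) of those peaks in the 319 windows with none, 20.04% (18.5 to 21.7%) in the 1151 windows with up to 5 kb, 13.9% (12.3 to 15.6%) in the 883 with over 5 to 50 kb, and 12.2% (8.95 to 16.4%) in the 273 with more. In members per window the fall was from 0.545 to 0.132. All peaks off H3K9me3, members included, thinned out as well. They numbered 762 in the 319 windows with no H3K9me3 and 295 in the 273 with over 50 kb. The rule itself leaves out peaks on H3K9me3.

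The window with most members ran from 122 to 123 Mb of chromosome 6. It held 6 broad and 3 narrow peaks, none on H3K9me3. The broad ones, in order of position, scored 55.2, 250, 218, 70.7, 227 and 83.2. They were therefore a mixture of weak and strong peaks, and 5 of the 6 had an H3K4me3 neighbour within 1 kb. The windows from 221 to 222 Mb of chromosome 1, 26 to 27 Mb of chromosome 6, 96 to 97 Mb of chromosome 13 and 116 to 117 Mb of chromosome 8 held 5 members each, which covered 12.6, 12.3, 10.4 and 9.72 kb. H3K9me3 covered 1.32, 1.66 and 1.53 kb of those on chromosomes 1, 6 and 8 and none of that on chromosome 13. No H3K4me3 peak in these 5 windows lay on H3K9me3. In the window of chromosome 13 the members lay 342 to 469 kb from H3K9me3, with scores from 99.4 to 225.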

How the data were processed

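ChIP-seq libraries of rat round spermatids were read as paired ends of 75 bp, per the labels' protocols. The submitters' processing notes name bcl2fastq, FastQC, Bowtie 1.2 and rn6, with no roles; peak names are those of the caller MACS, and no source used here gives its settings. The deposited rows give positions and a peak score that the authors computed, of a unit no header states. Starts are printed counted from 1. From the lists, overlaps of 1 bp or more, distances between edges, and shares with 95% intervals were computed with pandas 2.3.3, numpy 2.4.6 and scipy 1.17.1 under Python 3.11.15, and plots were drawn with matplotlib 3.10.9. Distances were tested on simulated data against a base-by-base answer. Depth is unknown, as the files hold no reads. No rn6 sequence or annotation was used here, so the planned promoter and marker results were not computed.

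The members, lists and alternatives were chosen with earlier results of these data known. Named regions are the 10 widest members, the 10 with the highest score, the one with the lowest, the 3 on each side of 1500 bp, the 5 windows of 1 Mb with most members, and the chromosomes with the extreme broad shares. Others, the groups within 1 kb among them, were chosen after values were seen.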

Additional observations from a re-analysis of the deposited data

How the results depend on the processing

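Results were recomputed under other settings, of which the score range of 100 to under 150, a neighbour within 1 kb and H3K9me3 within 100 kb were chosen after seeing the data. With minimum widths of 1000 and 2000 bp, the broad share of peaks off H3K9me3 was 40.9% and 8.82%, and the median score 85.1 and 203. The highest share by chromosome was 48.1%, on chromosome 13, and 12.3%, on chromosome 5. The lowest was 32.2%, on chromosome 16, and 4.52%, on chromosome 11. The windows with a broad peak were 42.1% and 14.5%. Broad minus narrow for a neighbour within 5 kb was 14.1 and 4.08 percentage points, the latter with an interval from -0.466 to 8.81. That last difference turned to -7.04 among scores at or above the list median and to -17.3 at scores from 100 to under 150. Against narrow peaks with scores between the quartiles of the broad ones it was -16.4. With peaks within 1 kb joined it was -0.971, with an interval from -2.81 to 1.03 that held 0. That setting itself removes the neighbours within 1 kb. The broad minus narrow share on H3K9me3 turned to -14.5 points among scores at or above the list median, and was 2.78 points (0.167 to 5.48) with H3K9me3 peaks at or above their median score only.

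The broad minus narrow share with H3K9me3 within 10 kb, -7.60 points, stayed below 0 in each setting run: -5.31 without peaks within 1 kb of H3K9me3, -5.74 with H3K9me3 peaks at or above their median score only, -5.54 at H3K4me3 scores at or above the list median, -13.3 within 50 kb and -12.3 within 100 kb. Without peaks within 10 kb of H3K9me3 it has no value, and the broad share was 19.3%. With H3K9me3 peaks at or above their median score only, chromosome 10 had the highest broad share, 22.7%. At H3K4me3 scores at or above the list median the broad share was 42.8%. It was then highest on chromosome 19, with 58.5%, and lowest on chromosome 9, with 33.02%. With peaks joined the broad share was 27.3% and the median score 117. Chromosome 10 was then highest, with 35.8%, and 31.0% of windows held a broad peak. Of 5-Mb windows, 69.3% did. The causes were not tested. Without chromosome 13, each of the 8 results stayed within the interval of its main value. The promoter result was not run. No paired analysis was possible because each mark has 1 library.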

Other observations

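Outside chromosomes 1 to 20, 20 of 112 H3K4me3 peaks were 1500 bp or wider, and 3 of these lay off H3K9me3. Of them, 2 were on X, where 9 of 68 peaks were broad, with widths of 1544 and 1757 bp and scores of 99.5 and 115. The third was on mitochondrial DNA, which carries no histones, with a width of 2183 bp and a score of 107. Both values of that peak lay within the range of the members on chromosomes 1 to 20. All 10 broad peaks on unplaced sequences overlapped H3K9me3, and neither of the 2 peaks on Y was broad.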
